A study of Homo sapiens with 4 samples.

Results

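The resting transcriptome of H1944, a human lung cancer cell line, is described here from the libraries of cells that received only DMSO, the vehicle of the drug arm. These are 2 of the 4 libraries of a study of BAY1217389, an inhibitor of the mitotic kinase MPS1 (TTK). The members were chosen by treatment label, with earlier results of these data known. The drug-treated libraries enter no value below except 1 set of scaling factors. Cells were kept in DMSO for 48 h and then without it for 24 h in RPMI 1640 with serum and antibiotics before RNA was taken, so the state described is that of cells in vehicle followed by washout, not of cells never handled. Both libraries come from 1 cell line, and they are labelled biological replicates. Nothing says whether they came from separate cultures, so the spread between them may be technical. With 1 group and no contrast nothing was tested: values are given for replicate 1 and then replicate 2, or as the mean ± SD of both (n = 2).

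H1944 is known as a lung adenocarcinoma line that lacks functional LKB1, a kinase encoded by STK11. RAS proteins pass growth signals through RAF, MEK and ERK. LKB1 activates AMPK and the salt-inducible kinases, which hold the CRTC coactivators of the transcription factor CREB in check. Cytosolic DNA is sensed by cGAS, whose product cGAMP activates STING, which through the kinase TBK1 and the factor IRF3 switches on interferons. Secreted interferon signals through JAK kinases and factors such as STAT2 and IRF9 to induce interferon-stimulated genes, many of which restrict viruses.

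The libraries held 39332931 and 38904473 reads assigned to genes, at which a gene with 0 reads could stand at up to 0.0763 and 0.0771 CPM (CPM, reads scaled to library size, here 3 reads of the total and counting error only). At least 1 read fell on 20563 and 20447 of the 46427 listed genes. A gene counted as detected at 1 CPM or more in both libraries, which held for 13417 genes, or 28.9%. Among 19365 protein-coding genes 12021 were detected, or 62.1%, and among 12468 long noncoding RNA genes 653 were. The detected protein-coding genes had a median of 28.7 and 28.8 CPM. By mean level 2758 of them lay from 1 to 10 CPM, 7354 from 10 to 100 CPM, 1815 from 100 to 1000 CPM and 94 at 1000 CPM or more. Levels of different genes are compared below as CPM per kb, which divides by transcript length, and as a percentile among the 11998 detected protein-coding genes with a known length, where the median gene stood at 9.79 and 9.80 CPM per kb.

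A few genes held much of the RNA. The 10 genes of highest CPM took 7.78% and 7.64% of all reads, the top 100 took 25.3% and 25.1%, and the top 1000 took 56.8% and 56.7%. Transcripts of the mitochondrial genome alone held 5.93% and 5.89% of reads, and the genes of cytosolic ribosomal proteins held 6.55% and 6.64%. Cytosolic ribosomal RNA, which poly(A) selection should leave behind, held 1.87% and 1.58%. Of the classes given here it differed most between the libraries in relative terms, with 18S at 0.113% in replicate 1 and 0.0600% in replicate 2.

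The single most abundant transcript was mitochondrial COX1, a core subunit of cytochrome c oxidase, at 13977 and 13953 CPM. It was followed by EEF1A1, the elongation factor that brings aminoacyl-tRNA to the ribosome, at 9904 and 9829.9 CPM, and by the glycolytic enzyme GAPDH at 8626 and 8789.6 CPM. The other mitochondrial genes among the top 20 by CPM were ND4, RNR2, COX2, COX3, ATP6, ND1 and ND2, and 3 rows of 28S ribosomal RNA, which share near-identical copies, also stood there. The remaining nuclear genes of the top 20 were FTL, TXNRD1, FTH1, SLC7A5, ASPH, AKR1C2 and ACTG1. SLC7A5, the light chain of the large neutral amino acid transporter, stood at 4519.7 and 4570.0 CPM, and ASPH, an aspartyl hydroxylase of the endoplasmic reticulum, at 4102 and 4166 CPM.

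Per length the order changed. The highest protein-coding genes were FTL and FTH1, the light and heavy chains of the iron store ferritin, at 7751 and 7929 CPM per kb and at 4488 and 4521 CPM per kb, with GAPDH between them at 6535 and 6659 CPM per kb. The aldo-keto reductase AKR1C2 came next at 2786 and 2712 CPM per kb. The next places went mainly to ribosomal protein genes: of the first 50 genes 30 encoded ribosomal proteins, and RPL13A led them at 2559 ± 22.1 CPM per kb. The exceptions among the first 20 were SPP1, which encodes the secreted matrix protein osteopontin, at 2022 ± 7.49 CPM per kb, ACTG1, cytoplasmic gamma actin, at 1830.2 ± 40.3 CPM per kb, the glycolytic enzyme ENO1 at 1654 ± 4.77 CPM per kb, and ASPH at 1621 ± 17.9 CPM per kb. EEF1A1 stood just behind RPL13A, although its level per kb depends on which transcript length is taken.

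**Figure D1:**
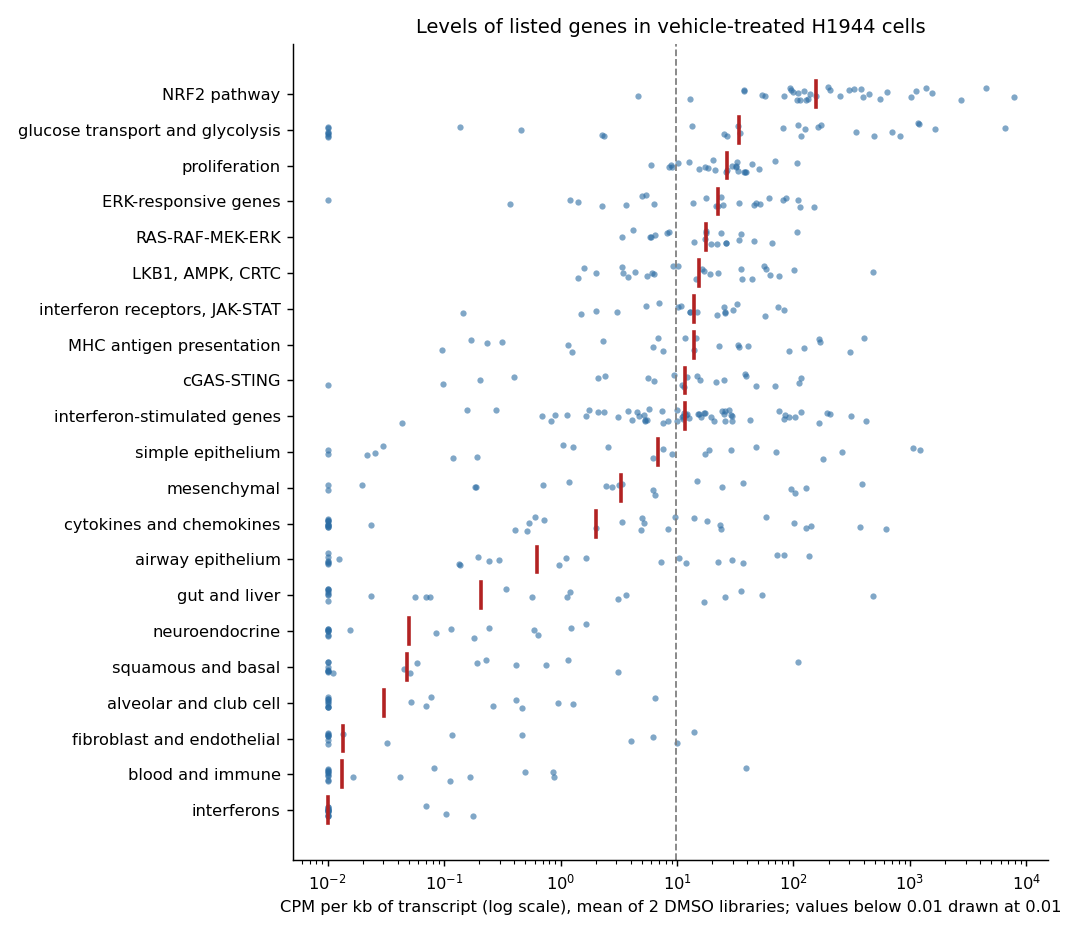
Each point is 1 gene of a list, placed on a log axis by its mean CPM per kb over both DMSO libraries (values below 0.01 are drawn at 0.01), the red bar is the list's median and the dashed line the median detected protein-coding gene. Mitochondrially encoded genes and some smaller groups are not drawn. Of the lists drawn, NRF2 pathway genes have the median farthest to the right, and the 15 interferon genes sit at the left edge or below 1 CPM per kb.

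Genes of the NRF2 oxidative stress programme stood high in the abundance ranks. NRF2, encoded by NFE2L2, is held for degradation by KEAP1 and CUL3 and, when released, induces genes for glutathione and thioredoxin synthesis, NADPH production, iron storage and drug export. All 35 listed genes were detected, against 62.1% of protein-coding genes. Their median percentile was 96.8, and 29 of 35 lay at percentile 90 or more (the top range below), against a median percentile of 20.1 and 6.20% in the top range over all protein-coding genes. Together they took 4.24% and 4.25% of all reads. Some of the 35, such as ferritin, thioredoxin and the pentose phosphate enzymes, are abundant in many growing cells.

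Within the thioredoxin arm, TXNRD1, the reductase that recycles thioredoxin, stood at 6078 and 6056 CPM, and its substrate TXN at 1026 and 1043 CPM. SRXN1, which repairs oxidised peroxiredoxins, was at 1038 and 1031 CPM. The lowest percentile of the 3 was 98.6, that of SRXN1. Among the aldo-keto reductases, which reduce lipid and steroid carbonyls, AKR1C2 reached 2749 ± 51.8 CPM per kb, AKR1C3 636 ± 1.10 CPM per kb and AKR1B10 399 ± 0.585 CPM per kb. AKR1C1 was counted at 2233 and 2205 CPM, but its sequence is close to AKR1C2 and reads of the family can be shared. NQO1, a quinone reductase used widely as an NRF2 reporter, stood at 2026 and 2034 CPM, and ALDH3A1, an aldehyde dehydrogenase, at 777 and 807 CPM.

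Enzymes of the pentose phosphate pathway were also high. PGD, which makes NADPH, stood at 551 ± 4.15 CPM per kb, and of the non-oxidative enzymes TALDO1 stood at 252 ± 5.34 CPM per kb and TKT at 1015 ± 5.47 CPM per kb. In glutathione synthesis the cystine importer SLC7A11 stood at 1072 and 1055 CPM, the modifier subunit GCLM at 128 ± 2.13 CPM per kb and the catalytic subunit GCLC at the lower 38.0 ± 0.305 CPM per kb. Export pumps ABCC1, ABCC2 and ABCC3 lay close together at 155 ± 0.0228 CPM per kb, 139.9 ± 4.66 CPM per kb and 123 ± 3.69 CPM per kb. The regulators themselves were less extreme. NFE2L2 stood at 251 and 249 CPM (percentile 94.1), KEAP1 at 103 and 106 CPM (83.5) and CUL3 at 86.8 and 84.8 CPM (58.2). The only member below the median gene was CBR3, a carbonyl reductase, at 5.87 and 4.99 CPM.

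**Figure D2:**
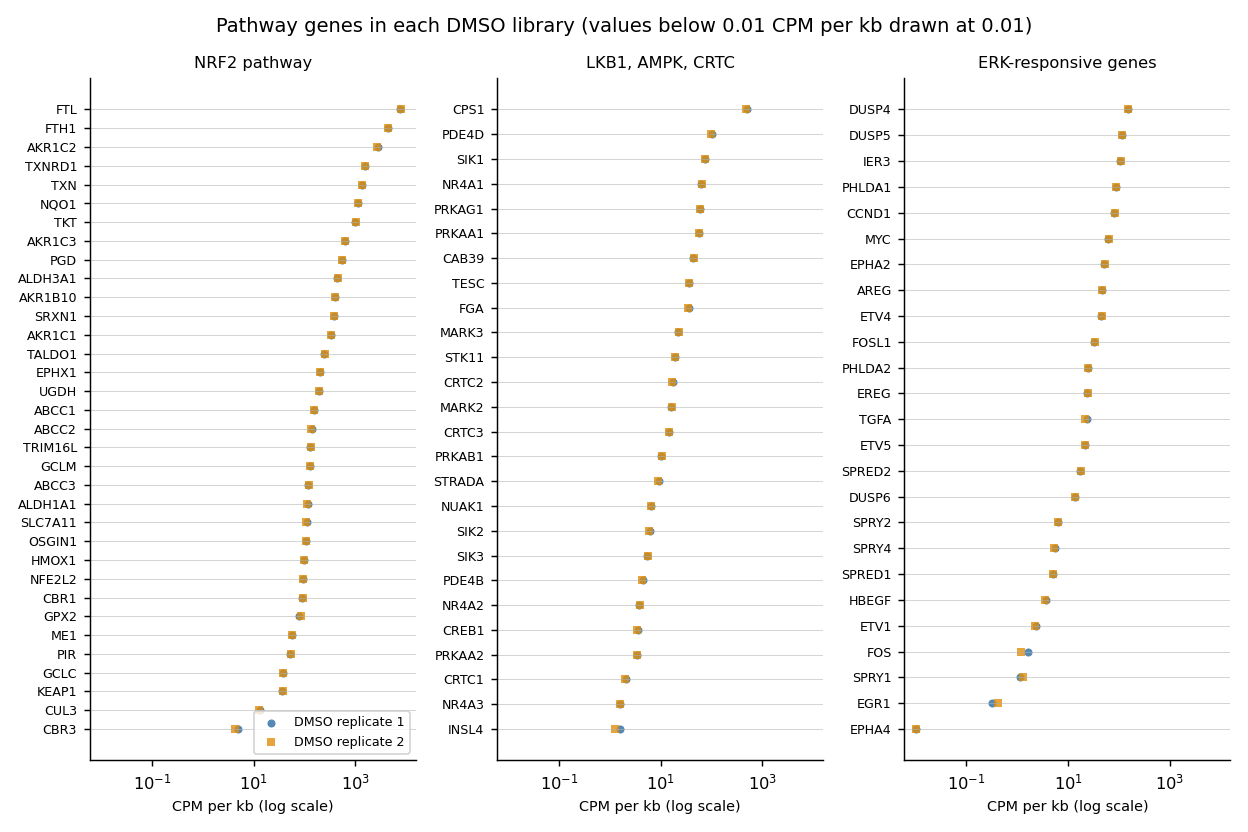
Genes of 3 lists are shown as rows, with circles for DMSO replicate 1 and squares for replicate 2, on a log axis in CPM per kb (values below 0.01 drawn at 0.01). The replicates nearly coincide at high levels, ferritin leads the NRF2 list, CPS1 the LKB1 list and DUSP4 the ERK list.

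Antioxidant response elements are the sites that NRF2 is known to bind. Promoter windows from 250 bases before to 50 bases after the start, taken from RefSeq (GRCh38.p14), were held for 25 of the 35 genes. The letters TGACNNNGC, read on both strands with overlaps allowed, were found in 7 of these 25 windows, against 14.3% of 15199 protein-coding windows and 17.3% of genes in the top range per kb. The letters are thus common in any promoter of this length, and a match is a description rather than a binding site. The stretches around the first match of TXNRD1 (chr12:104215650-104215718, plus strand) and PGD (chr1:10398833-10398901, plus strand), the most abundant per kb of the genes whose match has 30 bases on each side before the start, are shown 5′ to 3′ with the matched letters in capitals.
TXNRD1: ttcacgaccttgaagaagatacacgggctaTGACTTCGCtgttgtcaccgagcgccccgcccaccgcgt
PGD: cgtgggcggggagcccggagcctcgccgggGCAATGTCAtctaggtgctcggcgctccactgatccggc
TXNRD1 holds the letters in forward orientation, and in PGD they are read from the other strand.

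Glycolysis was the other metabolic programme at the top. Of 30 genes for glucose and lactate transport and glycolytic isozymes 22 were detected, or 73.3%, near the 62.1% of all protein-coding genes. In the top range lay 14, against 6.20% of all protein-coding genes. The list together held 2.34% and 2.36% of reads. Single isozymes dominated most steps. HK1, which commits glucose to the cell, made up 98.4% and 98.9% of hexokinase transcripts per kb, while HK2, the form often induced in tumours, stood at only 3.20 and 2.03 CPM. ALDOA made up 99.7% and 99.8% of aldolase, ENO1 99.1% and 99.0% of enolase, and the glucose transporter SLC2A1 80.7% and 81.6% of the glucose transporters listed, with SLC2A3 next at 19.3% and 18.4%. Phosphofructokinase was more mixed, with PFKP at 64.2% and 63.7%, PFKL at 19.9% and 20.6% and PFKM at 15.9% and 15.6%. Both main lactate dehydrogenase subunits were abundant, LDHB at 1666 and 1677 CPM and LDHA at 1311 and 1317 CPM, which gave LDHB 62.8% of the family in each library. The liver and germline forms PKLR, SLC2A2 and LDHC had 0 reads in both libraries.

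All 13 protein-coding transcripts of the mitochondrial genome were detected and together held 5.16% and 5.13% of reads. Per kb COX1 stood at 9056 ± 10.9 CPM per kb and the complex I subunit ND6, the only one encoded on the opposite strand, at 264 ± 3.02 CPM per kb, the lowest of the 13. The complex I subunits ND4 and ND5 stood at 5790.1 ± 27.0 CPM per kb and 1839 ± 17.9 CPM per kb. Where reads of ND4L and ATP8 overlap their neighbours, they can be shared.

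The RAS pathway was present without an extreme member. All 21 listed components of RAS, RAF, MEK and ERK signalling were detected, against 62.1% of all protein-coding genes. Their median percentile was 67.0, against 20.1 over all protein-coding genes. NRAS, a RAS GTPase, was at 19.6 ± 0.458 CPM per kb and its paralogue HRAS at 17.2 ± 0.467 CPM per kb. Their percentiles were 69.4 and 66.2, but 91.6 and 67.1 by coding length. Of the RAF kinases, which RAS proteins activate, ARAF was at 26.5 ± 0.0671 CPM per kb and BRAF at 4.21 ± 0.306 CPM per kb. The adaptor phosphatase PTPN11 (SHP2) was the highest component at 107 ± 1.30 CPM per kb, ahead of the MEK isoform MAP2K2 at 65.6 ± 1.28 CPM per kb and the adaptor GRB2 at 46.2 ± 0.392 CPM per kb.

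Genes that ERK signalling is known to induce were detected in 24 of 25 cases, against 62.1% of all protein-coding genes. Above the median gene stood 16, against 31.0%, and 6 lay in the top range, against 6.20%. The highest were feedback phosphatases of the pathway, DUSP4 at 639 and 643 CPM and DUSP5 at 291 and 293 CPM, together with IER3 at 132 and 139 CPM and PHLDA1 at 519.6 and 508 CPM. DUSP6, another ERK phosphatase, was lower at 43.2 and 43.6 CPM, and so were the Sprouty inhibitors SPRY2 at 15.3 and 15.2 CPM and SPRY4 at 20.2 and 19.1 CPM. MYC, the growth-promoting transcription factor, stood at 144 and 148 CPM and took 98.1% of the MYC family per kb. The immediate-early genes FOS and EGR1 were low, with 139 and 100 reads and 40 and 50 reads. The growth factors AREG, EREG and TGFA, ligands of EGFR, stood at 47.5 ± 0.0183, 23.8 ± 0.435 and 22.5 ± 0.971 CPM per kb.

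Of 29 listed receptor tyrosine kinases 18 were detected, or 62.1%, the share among all protein-coding genes, and 7 had 0 reads in both libraries, among them ALK, RET, FGFR2 and PDGFRA. The highest were EPHA2 at 51.6 ± 2.11 CPM per kb and MET, the hepatocyte growth factor receptor, at 50.3 ± 1.12 CPM per kb. DDR1, a collagen receptor, stood at 25.7 ± 0.214 CPM per kb, AXL at 24.4 ± 0.0706 CPM per kb, ERBB3 at 24.1 ± 0.572 CPM per kb and EGFR at 21.8 ± 0.752 CPM per kb, values within a narrow range. EGFR had 57.1 and 54.4 CPM. Its percentile was 72.3, but 44.1 by coding length.

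Genes tied to the LKB1 axis ranged from one of the most abundant transcripts to rare ones. All 26 listed genes were detected, against 62.1% of all protein-coding genes. Their median percentile was 63.2, against 20.1, and 4 lay in the top range, against 6.20%. STK11 mRNA itself was present at 49.6 and 50.4 CPM, at percentile 68.9 (51.8 by the union of exons). CPS1, the urea cycle enzyme that makes carbamoyl phosphate in mitochondria, stood at 2825 and 2773 CPM, percentile 98.9. CPS1 is normally a liver enzyme and is known to be high in lung adenocarcinoma cells without LKB1.

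Of the known CREB and CRTC targets some followed CPS1 and others stood near the foot of the list. PDE4D, a phosphodiesterase that breaks down cAMP, stood at 301 and 285 CPM and made up 95.9% of the PDE4B and PDE4D pair per kb. SIK1, a salt-inducible kinase that is both a CREB target and an inhibitor of CRTC, stood at 357 and 360.4 CPM and made up 86.5% of the SIK family. The nuclear receptor NR4A1 was at 161 and 168 CPM, ahead of NR4A2 at 12.7 and 13.6 CPM and NR4A3 at 5.97 and 6.01 CPM. FGA, the fibrinogen alpha chain, was at 106 and 104 CPM, and INSL4, a placental peptide gene, at 3.03 and 2.44 CPM, the lowest of the list per kb.

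The kinases and coactivators of the axis were moderate. Of the AMPK catalytic subunits PRKAA1 stood at 55.5 ± 0.270 CPM per kb and PRKAA2 at 3.40 ± 0.0665 CPM per kb, so that PRKAA2 held 5.77% of the pair (23.7% by coding length). The regulatory subunit PRKAG1 was at 58.3 ± 0.0538 CPM per kb and the LKB1 scaffold CAB39 at 43.9 ± 2.31 CPM per kb. Of the coactivators CRTC2 took 50.8% and CRTC3 43.3% of CRTC transcripts, an order that is turned by coding length (38.2% and 53.3%), and CRTC1 took 5.93%. The letters TGACGTCA of the cAMP response element, read on both strands, were in 0 of the 22 promoter windows held for this list, against 2.62% of all windows. At so low a share, 22 windows are too few for 0 matches to set the list apart.

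Tumour suppressors were detected in 22 of 24 cases, against 62.1% of all protein-coding genes. None lay in the top range, against 6.20%. The 2 not detected were the neighbouring cell cycle inhibitors CDKN2A and CDKN2B, which encode p16 with ARF and p15. Both had 0 reads in each library. MTAP, which lies next to them in the genome, was present at 1987 and 2037 reads. RB1, which holds back entry into S phase, stood at 72.1 and 73.7 CPM. SMARCA4, an ATPase of the SWI/SNF chromatin remodeller, was far lower, with 142 and 168 reads, which is percentile 4.59. Its paralogue SMARCA2 had 2158 and 2041 reads, so that SMARCA2 made up 93.8% and 92.4% of the pair per kb, and 93.5% by coding length.

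Genes of DNA replication and mitosis were expressed throughout. All 25 proliferation genes were detected and 21 lay above the median gene, against 62.1% and 31.0% of all protein-coding genes. The replication clamp PCNA stood at 106 ± 1.70 CPM per kb, thymidylate synthase TYMS at 69.8 ± 4.59 CPM per kb, the mitotic kinase CDK1 at 50.8 ± 0.469 CPM per kb, the transcription factor FOXM1 at 43.9 ± 0.198 CPM per kb, the helicase subunit MCM4 at 39.2 ± 1.04 CPM per kb and topoisomerase TOP2A at 38.7 ± 0.287 CPM per kb. TTK, the kinase that the study's drug inhibits, stood at 19.4 and 19.3 CPM and was the lowest of the list per kb. Among D cyclins CCND3 took 74.3% and CCND1 25.7% of the family (58.4% and 41.6% by coding length), and CCND2 had 0 reads. CDK4 made up 91.5% of the CDK4 and CDK6 pair (78.7% by coding length). The survival factors BCL2L1 and MCL1 stood at 107 ± 0.367 CPM per kb and 92.3 ± 0.172 CPM per kb, and BCL2 at 0.306 ± 0.0574 CPM per kb.

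Most markers of lung alveolar and club cells were absent or near 0, and keratins of simple epithelia stood beside some mesenchymal genes. Lung alveolar and club cell markers were detected in 3 of 18 cases, against 62.1% of all protein-coding genes. Of these markers 9 had 0 reads in both libraries, against 22.8% of all protein-coding genes. NKX2-1, the transcription factor that defines the lung lineage, had 0 and 0 reads, and so had SFTPB, SFTPA1 and SCGB1A1. NAPSA, an aspartic protease of alveolar cells, had 26 and 24 reads. The 3 that reached 1 CPM were HOPX at 9.97 and 10.0 CPM, the lipid transporter ABCA3 at 6.20 and 6.27 CPM and AGER at 1.68 and 2.16 CPM. The label gives lung as the tissue, and the defining markers of its alveolar and club cells were absent or near 0.

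Of 22 simple epithelial markers 15 were detected, or 68.2%, near the 62.1% of all protein-coding genes. In the top range lay 5, against 6.20% of all protein-coding genes. A few keratins were among the most abundant transcripts. KRT8 and KRT18, which pair to form the filaments of simple epithelia, stood at 2202 and 2219 CPM and at 1585 and 1591 CPM, and KRT7 at 309.7 and 313 CPM. The protease inhibitor SPINT2 was at 408 and 419 CPM and KRT80 at 275 and 278 CPM. KRT19, a keratin of most adenocarcinomas, had 0 and 0 reads. Adhesion genes were much lower: CDH1, which encodes E-cadherin, stood at 34.5 and 33.5 CPM (percentile 48.1), and EPCAM had 75 and 97 reads. The epithelial splicing regulators ESRP1 and ESRP2 were below 1 CPM, with 29 and 27 reads and 1 and 1 reads.

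Some mesenchymal genes stood beside the keratins. Of 20 listed, 15 were detected, or 75%, against 62.1% of all protein-coding genes, and 4 lay in the top range, against 6.20%. The list's median percentile was 22.9, near the 20.1 of all protein-coding genes. TGFBI, a matrix protein induced by TGF-beta, led at 1074 and 1081 CPM. The intermediate filament VIM was at 270.3 and 273 CPM and the hyaluronan receptor CD44 at 216 and 205 CPM. Of the transcription factors that repress E-cadherin, ZEB1 stood at 33.9 and 36.3 CPM, ZEB2 at 10.6 and 9.48 CPM, SNAI2 at 6.61 and 6.94 CPM and SNAI1 at 5.52 and 3.83 CPM, while TWIST1 had 6 and 18 reads. N-cadherin, CDH2, was low at 2.44 and 3.24 CPM, and the collagens COL1A2 and COL3A1 had 0 and 0 reads and 2 and 2 reads.

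A restricted set of liver genes was expressed. Of 22 gut and liver markers 10 were detected, or 45.5%, against 62.1% of all protein-coding genes. After CPS1 the highest were the fibrinogen chains, FGG at 92.3 and 90.0 CPM, FGA at 106 and 104 CPM and FGB at 50.1 and 51.4 CPM, so that all 3 subunits of the clotting protein were present. The liver and gut transcription factor HNF4G stood at 14.1 and 16.6 CPM and HNF4A at 4.65 and 5.30 CPM. Of the other plasma protein genes in the list, SERPINA1 was detected at 4.30 and 3.19 CPM. ALB, albumin, had 10 and 0 reads, APOB 4 and 5 reads, and APOA1 and TTR 0 reads in both libraries.

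**Figure D3:**
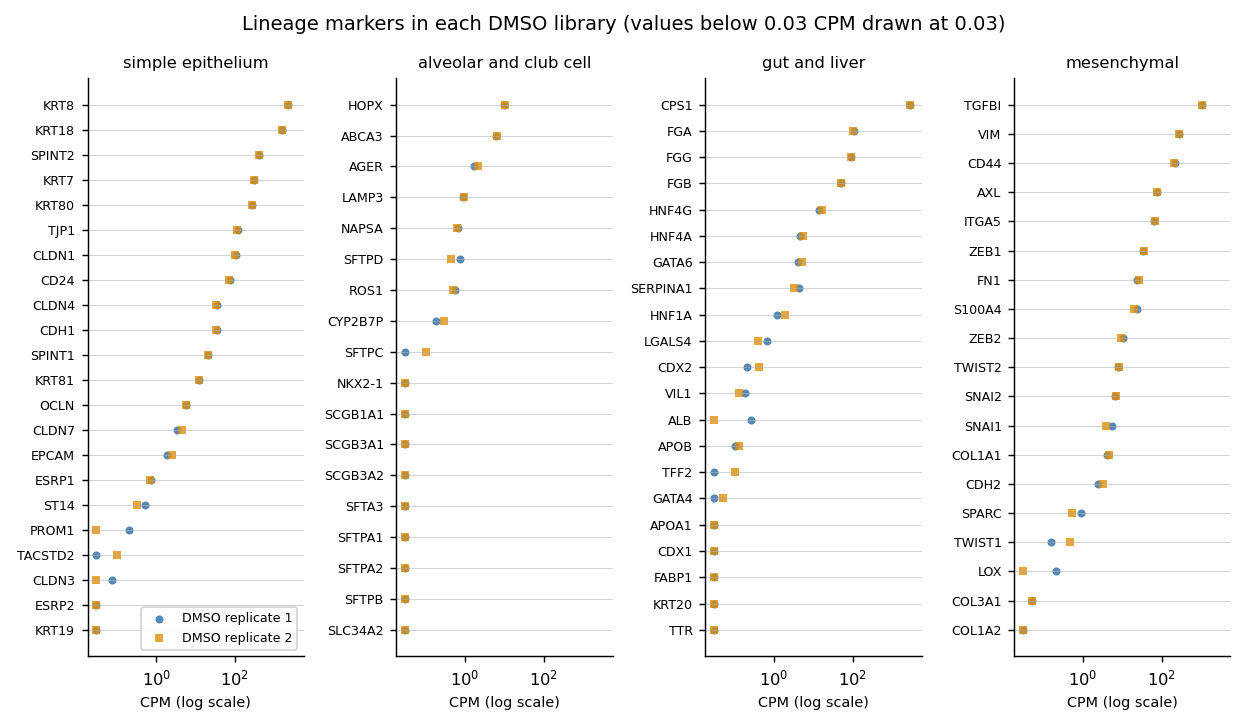
Lineage markers are shown as rows in 4 panels, with circles for DMSO replicate 1 and squares for replicate 2, on a log axis in CPM (values below 0.03 drawn at 0.03). KRT8 and KRT18, CPS1 and TGFBI exceed 1000 CPM, while the highest alveolar or club cell marker, HOPX, is at 9.97 and 10.0 CPM and NKX2-1 is at 0.

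Airway genes were mixed, with 13 of 24 detected, or 54.2%, against 62.1% of all protein-coding genes. The surface glycoprotein CEACAM6 stood at 369.9 and 360.2 CPM, the transcription factor KLF5 at 267 and 272 CPM, ELF3 at 116 and 118 CPM and the secreted inhibitor SLPI at 40.8 and 45.8 CPM. The mucin MUC5B was at 129.9 and 134 CPM, but only at 7.35 ± 0.144 CPM per kb (percentile 41.9). The epithelial factor GRHL2 and the ciliated cell factor FOXJ1 had 0 reads. Squamous genes were detected in 4 of 18 cases. KRT17 was the exception at 162 and 171 CPM, with KRT5 and KRT14 at 0 reads and TP63 at 72 and 83 reads. Neuroendocrine genes were detected in 3 of 16 cases, none above 4 CPM, and the neuroendocrine factor INSM1 had 0 and 0 reads.

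Markers of other cell types were mostly not detected, with exceptions among fibroblast genes. Blood and immune markers were detected in 3 of 18 cases, against 62.1% of all protein-coding genes. PTPRC, the pan-leukocyte antigen, had 0 reads in both libraries. CD68, a lysosomal protein, accounted for most of the summed 73.8 and 78.1 CPM of this list, at 69.5 and 72.5 CPM (percentile 84.1). Fibroblast and endothelial markers were detected in 5 of 15 cases, also against 62.1%. COL6A3 stood at 86.8 and 85.7 CPM (percentile 50.6), DCN at 16.1 and 14.4 CPM (60.2) and LUM at 13.2 and 10.8 CPM (26.8). The percentile of DCN was only 15.1 by the union of exons and 41.9 by coding length. PDGFRA, THY1, VWF and CDH5 were at 0. In RNA from bulk cultures, fewer cells with a gene and less of its RNA in each cell cannot be told apart.

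The DNA-sensing pathway was expressed but not abundant. Of 22 cGAS and STING genes 20 were detected, or 90.9%, against 62.1% of all protein-coding genes. Their median percentile was 55.2, against 20.1 over all protein-coding genes. CGAS, which makes cGAMP, had 670 and 731 reads, or 17.0 and 18.8 CPM, and STING1, which cGAMP activates, had 594 and 556 reads, or 15.1 and 14.3 CPM. Per kb STING1 stood at 11.0 ± 0.429 CPM per kb (percentile 53.4), about the median gene, and CGAS at 5.63 ± 0.390 CPM per kb (percentile 34.9). Their downstream partners were higher: the kinase TBK1 stood at 21.7 ± 0.568 CPM per kb (percentile 72.2) and the transcription factor IRF3 at 47.6 ± 1.13 CPM per kb (percentile 87.1). The ranges of these 4 genes over the libraries did not overlap. By coding length IRF3 stood at percentile 72.4, TBK1 at 64.1 and CGAS at 36.3, the same order among these genes. No coding length was held for STING1, so its place was not checked.

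Per kb the list was led by 3 proteins that move STING through the secretory pathway. SURF4, which returns STING to the endoplasmic reticulum, stood at 115 ± 0.518 CPM per kb, the cargo receptor TMED2 at 112 ± 2.12 CPM per kb and the sorting adaptor AP1S1 at 69.4 ± 3.31 CPM per kb. The coat protein SEC24C followed IRF3 at 39.0 ± 0.391 CPM per kb, and STIM1, which retains STING in the endoplasmic reticulum, stood at 11.4 ± 0.386 CPM per kb. SURF4, TMED2, AP1S1 and SEC24C serve general membrane traffic as well. IFI16, a nuclear DNA sensor, stood at 38.1 ± 0.618 CPM per kb. Of the channels that let cGAMP into cells LRRC8A stood at 14.9 ± 0.327 CPM per kb and the carrier SLC19A1 at 15.9 ± 1.35 CPM per kb, while LRRC8C had 61 and 54 reads and SLC46A2 0 reads. By the union of exons LRRC8A stood above SLC19A1, at percentiles 73.0 and 33.0. ENPP1, the ectoenzyme that hydrolyses cGAMP outside the cell, had 40 and 17 reads.

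Genes known to restrain nucleic acid sensing were detected in 26 of 28 cases, or 92.9%, against 62.1% of all protein-coding genes. The highest were TRIM28, which silences endogenous retroviruses, at 170.4 ± 2.27 CPM per kb, BANF1, which keeps cGAS off nuclear DNA, at 89.2 ± 1.16 CPM per kb, and ADAR, which edits double-stranded RNA, at 75.1 ± 1.56 CPM per kb. Next came MYC at 61.8 ± 1.10 CPM per kb, the DNA repair enzyme PARP1 at 53.4 ± 1.26 CPM per kb and the deacetylase HDAC1 at 37.6 ± 0.849 CPM per kb. DNMT1, the maintenance DNA methyltransferase, stood at 66.3 and 65.0 CPM and EZH2, the histone methyltransferase of Polycomb, at 30.9 and 31.8 CPM, both known as silencers of STING1 in other lung cancer cells. TREX1, the exonuclease that removes cytosolic DNA, was low at 2.36 and 2.21 CPM (percentile 12.9), whereas the lysosomal nuclease DNASE2 stood at 31.6 and 32.3 CPM.

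Of a list of RNA sensors, their partners and other innate sensors, members were detected in 10 of 18 cases. This is 55.6%, against 62.1% of all protein-coding genes. The kinase EIF2AK2 (PKR) stood at 42.0 ± 0.130 CPM per kb and the ligase TRIM25 at 37.2 ± 0.263 CPM per kb. The adaptor MAVS was at 12.4 ± 0.400 CPM per kb, the helicase RIGI (RIG-I) at 11.0 ± 0.0390 CPM per kb and IFIH1 (MDA5) at 5.53 ± 0.244 CPM per kb. The RNA receptors TLR7 and TLR8, typical of immune cells, had 0 reads in both libraries. The DNA sensor AIM2 and the inflammasome protein NLRP3, also in the list, had 0 reads in both libraries.

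No listed interferon gene reached detection. Of 15 interferon genes 12 had 0 reads in both libraries, including IFNB1, the first interferon that STING signalling is known to induce. The others had a handful: IFNL1 had 5 and 2 reads, IFNE 4 and 4 reads and IFNL3 0 and 9 reads. Over both libraries a count of 0 allows up to 0.0383 CPM, so transcription below that level was not detectable at this depth.

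The machinery to answer interferon was in place, with 19 of 20 receptor and JAK-STAT genes detected, against 62.1% of all protein-coding genes. The type I receptor subunits IFNAR1 and IFNAR2 stood at 10.9 ± 0.762 and 10.2 ± 0.108 CPM per kb (percentiles 53.2 and 51.3). The type II subunits IFNGR1 and IFNGR2 stood at 73.0 ± 0.242 and 26.0 ± 0.324 CPM per kb (percentiles 91.9 and 76.5). IFNLR1, the specific chain of the lambda receptor, was lowest of the receptors at 3.08 and 2.93 CPM. Of the factors that carry the signal to the nucleus, STAT2 stood at 84.9 and 77.5 CPM and IRF9 at 46.5 and 45.8 CPM. SOCS1, a feedback inhibitor of JAK kinases, had 4 and 10 reads, whereas SOCS3 stood at 38.2 and 43.1 CPM.

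Interferon-stimulated genes were expressed, while none of the listed interferon genes was detected. Of 60 genes 57 were detected, against 62.1% of all protein-coding genes. Above the median gene stood 36, against 31.0%, and 11 lay in the top range, against 6.20%. The summed level of the list was 3722 and 3721 CPM, or 0.372% of reads in each library. The highest were IFITM3, which blocks virus entry, at 332 and 344 CPM, the ubiquitin-like ISG15 at 203 and 198 CPM, IFI6 at 170.4 and 171 CPM and IFI27 at 128 and 137 CPM. IFITM2 stood at 106 and 110.3 CPM and LY6E at 133 and 138 CPM.

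Below these was a broad middle. The oligoadenylate synthetases, which activate RNase L, stood at 74.5 ± 2.79 CPM per kb for OAS1, 24.4 ± 0.213 CPM per kb for OAS3 and 11.5 ± 0.494 CPM per kb for OAS2. The IFIT proteins, which bind viral RNA, stood between 5.26 CPM per kb for IFIT5 and 17.0 for IFIT2, with IFIT1 at 12.6 ± 0.147 CPM per kb and IFIT3 at 15.2 ± 0.116 CPM per kb. MX1, a GTPase that traps viral nucleocapsids, was at 56.2 and 54.8 CPM, percentile 69.4. IRF7, the factor that amplifies interferon production, was at 22.6 and 25.2 CPM.

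The low end held genes with strong interferon induction in many cells. RSAD2 (viperin) had 105 and 121 reads, CMPK2 97 and 102 reads and HERC5 126 and 121 reads. Of the guanylate-binding proteins the list holds GBP1 at 83 and 83 reads, GBP2 at 173 and 134 reads and GBP4 at 8 and 13 reads. MX2, RTP4 and GBP4 were the 3 members under 1 CPM. The level per kb thus spanned from 0.0439 for GBP4 to 419 for IFITM3 within the list, and no member had 0 reads in both libraries. The median log2 difference between the libraries over the detected members was -0.01, with 28 higher in replicate 2 and 29 higher in replicate 1.

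**Figure D4:**
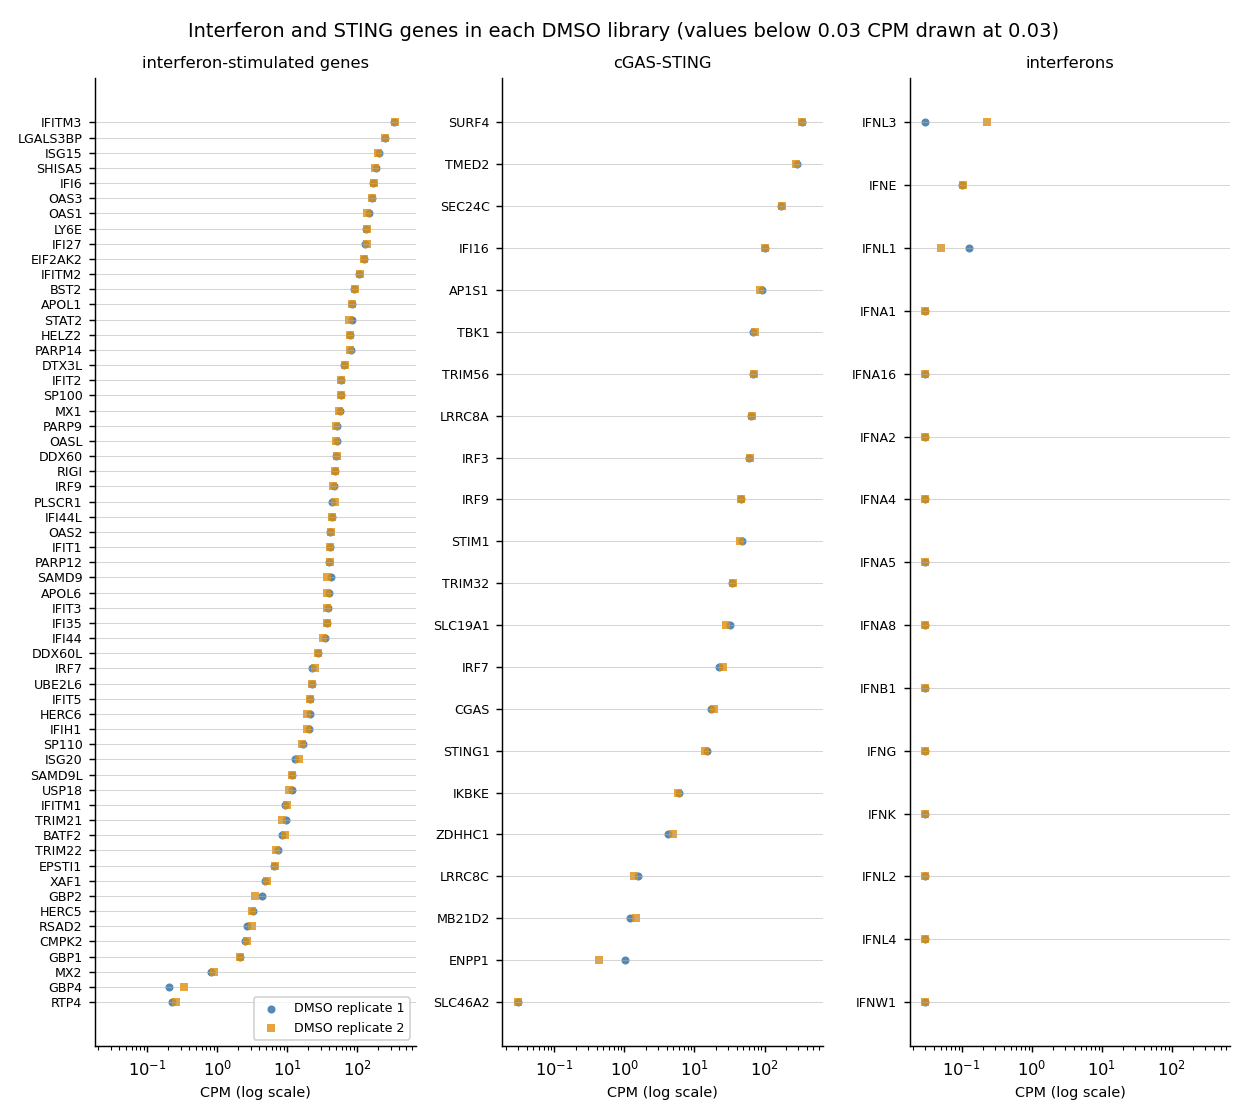
Interferon-stimulated, cGAS-STING and interferon genes are shown as rows, with circles for DMSO replicate 1 and squares for replicate 2, on a log axis in CPM (values below 0.03 drawn at 0.03). The first panel runs from IFITM3 above 300 CPM to RTP4 below 1 CPM, and in the third panel 12 of 15 interferon genes lie at 0.

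Most promoters of this list held a common short sequence, in abundant and in rare members alike. The interferon-stimulated response element is the site bound by the complex that holds STAT2 and IRF9. It was searched as GAAA, any 2 bases and GAAA again, on both strands with overlaps allowed. Windows were held for 47 of the 60 genes and 30 of these, or 63.8%, held the letters, against 3.20% of 15199 protein-coding windows, 2.66% of the windows of detected genes and 4.44% of those of genes at percentile 90 or more. A looser search tried after the data were seen, for 2 or more copies of GAAANN on 1 strand at any spacing, was met by 93.6% of the list and 52.9% of all windows. The genes with a match had a median of 11.6 CPM per kb (0.0439 to 419), and the 17 without had a median of 11.0 (0.821 to 84.5).

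To show both ends, the stretches around the first match are printed for the 4 most abundant and the 3 least abundant genes per kb whose match has 30 bases on each side before the start, 5′ to 3′ on the gene's strand with matched letters in capitals. In RefSeq (GRCh38.p14) they lie at chr11:320873-320942 (minus strand) for IFITM3, chr1:1013354-1013423 (plus) for ISG15, chr1:27672309-27672378 (minus) for IFI6, chr14:94110598-94110667 (plus) for IFI27, chr3:187368313-187368382 (plus) for RTP4, chr1:89065296-89065365 (minus) for GBP1 and chr4:88456964-88457033 (plus) for HERC5.
IFITM3: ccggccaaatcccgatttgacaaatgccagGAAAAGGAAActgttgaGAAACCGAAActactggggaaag
ISG15: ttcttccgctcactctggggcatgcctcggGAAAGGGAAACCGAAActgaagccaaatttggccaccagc
IFI6: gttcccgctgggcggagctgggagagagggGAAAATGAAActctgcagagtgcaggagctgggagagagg
IFI27: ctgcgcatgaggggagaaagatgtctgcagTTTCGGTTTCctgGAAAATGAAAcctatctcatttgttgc
RTP4: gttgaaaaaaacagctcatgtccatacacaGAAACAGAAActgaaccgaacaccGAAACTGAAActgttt
GBP1: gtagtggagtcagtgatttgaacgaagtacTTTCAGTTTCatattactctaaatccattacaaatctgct
HERC5: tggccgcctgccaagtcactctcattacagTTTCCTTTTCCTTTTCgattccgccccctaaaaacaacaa
Among the abundant genes ISG15 holds 2 overlapping copies of the letters, and IFITM3 and IFI27 hold 2 separate copies in the stretch shown. RTP4, with 9 and 10 reads, also holds 2 copies, and HERC5, with 126 and 121 reads, holds 2 overlapping copies on the other strand. A match is a description of the letters and not of occupancy. OAS1 and STAT2, at 146 and 138 CPM and at 84.9 and 77.5 CPM, are among the genes whose window held no match.

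Of 23 listed genes of MHC antigen presentation 18 were detected, or 78.3%, against 62.1% of all protein-coding genes. B2M, the shared light chain of class I molecules, stood at 392 and 375 CPM. The heavy chain HLA-C was at 460.3 and 469.9 CPM and HLA-B at the lower 51.5 and 53.6 CPM. Reads can be shared between these near-identical genes. HLA-G had 0 and 150 reads, the widest log2 gap between the libraries in the list. The part of read assignment in that gap was not tested. The peptide transporter TAP1 stood at 68.3 and 66.4 CPM and the immunoproteasome subunit PSMB8 at 41.5 and 40.7 CPM. Class II genes were under 1 CPM, with HLA-DRA at 11 and 6 reads, CD74 at 16 and 5 reads and their regulator CIITA at 6 and 22 reads.

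Of 33 cytokines and chemokines 19 were detected, or 57.6%, near the 62.1% of all protein-coding genes, and 10 had 0 reads in both libraries. GDF15 led at 731 and 764 CPM, followed per kb by MIF at 334 and 363 CPM, the inflammasome substrate IL18 at 157 and 159.9 CPM, the angiogenic factor VEGFA at 129 and 137 CPM, the neutrophil chemokine CXCL5 at 258 and 258 CPM and LIF at 131 and 133 CPM. CXCL10, the T-cell chemokine that STING and interferon signalling are known to induce, had 0 and 0 reads, as had CXCL9 and TNF. CCL5, often induced with CXCL10, was present at 23.1 and 25.6 CPM. The inflammatory cytokine IL6 stood at 5.59 and 5.35 CPM and the neutrophil chemokine CXCL8 at 6.69 and 4.91 CPM.

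Of 23 genes for ligands that immune cells read and related proteins, 15 were detected, or 65.2%, near the 62.1% of all protein-coding genes. LGALS1 (galectin 1) was highest at 111 and 121 CPM, followed per kb by NECTIN2 at 100.1 and 106 CPM, LGALS3 at 59.4 and 59.6 CPM and PVR at 105 and 108 CPM, the last a ligand of TIGIT with NECTIN2. NT5E (CD73), which makes adenosine, stood at 92.7 and 87.9 CPM and CD276 (B7-H3) at 59.8 and 64.7 CPM. CD274, which encodes PD-L1, had 44 and 34 reads, which is 1.12 and 0.874 CPM, and IDO1 had 0 reads. The NKG2D ligands MICA and ULBP2 stood at 29.6 and 29.5 CPM and 13.8 and 14.3 CPM.

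The 2 libraries differed by more than counting noise but little in size. Their counts gave a chi-square of 3.74 per gene over 16168 genes, where counting noise alone gives 1, so they were not 1 library deposited again. Across the 13417 detected genes, which are not independent replicates, Pearson's r of log2 CPM was 0.997. The median absolute log2 difference was 0.20 for genes of 1 to 5 CPM, 0.10 for 5 to 20 CPM, 0.05 for 20 to 100 CPM and 0.03 above, where counting error alone gives 0.14, 0.07, 0.03 and 0.02. Low genes named above thus carry a visible error, and genes above 100 CPM a very small one.

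Of 11060 genes of at least 5 mean CPM, 39 were more than 0.5 log2 apart and 4 more than 1. SLCO1C1, a thyroid hormone and organic anion transporter, was the widest, with 1084 and 156 reads. CPT1B and PTCD1, with 330 and 176 reads and 823 and 534 reads, overlap read-through genes and are uncertain. The lipid phosphatase MTM1 had 270 and 181 reads, the nuclease DNASE1 321 and 216 reads and the adhesion gene CNTN1 288 and 199 reads. In the other direction REEP6 had 175 and 282 reads, LRTOMT 174 and 278 reads, SCO2, a copper chaperone of cytochrome c oxidase, 418 and 626 reads, GALNT4 436 and 637 reads and PCDHA12, which shares exons with its cluster, 228 and 333 reads. None of the genes just named belongs to a list above.

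**Figure D5:**
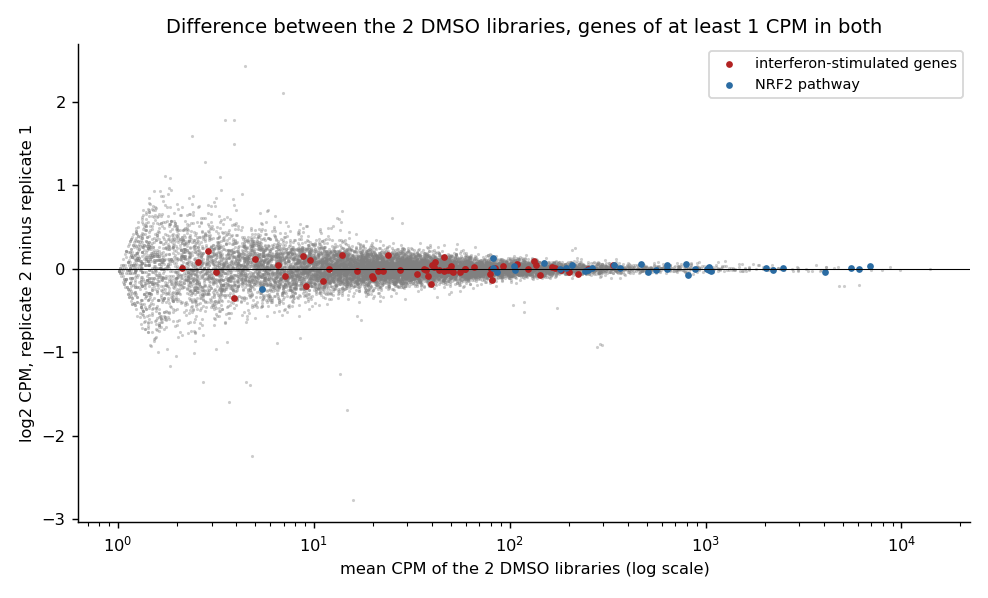
Each grey point is a gene of at least 1 CPM in both libraries, with mean CPM on a log axis and the log2 CPM of replicate 2 minus replicate 1 on the vertical axis. Interferon-stimulated genes (red) and NRF2 genes (blue) lie between -0.35 and 0.22, and the spread narrows as CPM grows.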

How the data were processed

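Per the labels' protocols, an RNeasy kit gave the RNA, RiboGreen its concentration and the TruSeq Stranded mRNA kit the libraries. The values the authors deposited are raw counts of reads, in 46427 rows that carry symbols and RefSeq IDs, as the file headers show. The submitters' processing notes name hg18, but some identifiers are younger than that build, which leaves the gene models unclear. Aligner, counter and use of strand: not given in the sources used here. Overlapping, antisense and near-identical genes are therefore uncertain. A further 4 columns, of libraries outside the series, were not used.

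CPM is the count scaled to the library's total. CPM per kb divides by the median length of GENCODE release 29 transcripts that carry a RefSeq accession of the gene (12553 detected genes) or its symbol (414), and 450 detected genes had no length. Detected means at least 1 CPM in both libraries. Differences between libraries are log2 after adding 1 read. With 1 group no p-value was computed. The calculation was tested on simulated data, and the tools were Python 3.11.15, pandas 2.3.3, numpy 2.4.6, R 4.3.3 and edgeR 4.0.16, the last for TMM factors over the 4 libraries.

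The 31 lists hold 720 genes, 719 of them in the sheets, and 520 were detected. The members and the lists were chosen with earlier results of these data known. The genes named are the 20 highest by CPM, the 20 highest protein-coding by CPM per kb, up to 6 members of each list highest per kb with examples of members at 0 or below 1 CPM, a fixed set of 24 genes, and the 6 genes with the largest difference each way between the libraries among genes of at least 5 mean CPM, leaving out uncharacterised and read-through genes. Some genes that this rule names, or that the lists hold, are not reported here by name. Other members named in the text were chosen after their values were seen. Alternatives were other totals, other thresholds, either library alone, and, chosen after seeing the data, lengths from the union of exons or the longest coding sequence. The promoter motifs were also chosen after seeing the data.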

Additional observations from a re-analysis of the deposited data

How the results depend on the processing

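No paired analysis was possible because only 1 group is described and no test was made. The number of detected genes, 13417, was 13394 with TMM factors, 13482 with mitochondrially encoded genes left out of the total, 13617 and 13639 in either library alone, 14514 at 0.5 CPM, 10939 at 5 CPM and 13242 at 0.5 CPM per kb. Detected members of the lists, 520 in all, ran from 455 at 5 CPM to 540 at 0.5 CPM. The share of the 100 most abundant genes, 25.2%, was 22.0% without the mitochondrially encoded genes and 36.3% of summed CPM per kb when genes were ranked per length, because those genes leave the total or shorter transcripts gain weight, and it ran from 25.1% to 25.3% in single libraries. At 5 CPM the squamous list fell to 1 detected member, the neuroendocrine list to 0, the blood list to 1, the gut and liver list to 6 and the cancer-testis list to 6, and at 0.5 CPM the alveolar and neuroendocrine lists reached 5 each. With lengths from exon unions or coding sequences, an addition made after seeing the data, the median percentile of the NRF2 list was 97.7 and 96.4, and that of the interferon-stimulated genes 57.4 and 55.7. Single genes moved more: 17 and 13 of the 60 interferon-stimulated genes shifted by over 10 points. EGFR, MUC1, VEGFA, DCN and SLC19A1, among others, shifted by over 25 by one length or both.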

Other observations

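Cancer-testis genes, which are normally kept to the germline, were detected in 10 of 23 cases, or 43.5%, against 62.1% of all protein-coding genes. The highest per kb were XAGE1B at 40.0 ± 1.16 CPM per kb and MAGEA6 at 36.3 ± 0.318 CPM per kb, followed by MAGEA12 at 26.6 ± 0.533 CPM per kb and CTAG2 at 24.9 ± 1.98 CPM per kb. MAGEA3 and MAGEA6 are near-identical, as are CTAG1A, CTAG1B and CTAG2, so reads can be shared within each set. MAGEA4 and SSX4 had 0 reads in both libraries, and PRAME had 91 and 108 reads.

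Long noncoding RNAs gave values of their own kind. Of 24 listed, 20 were detected, against 653 of all 12468 long noncoding RNA genes. The snoRNA host SNHG29 stood at 688 and 687 CPM and GAS5, another snoRNA host, at 174 and 171 CPM. NORAD, which binds Pumilio proteins, was at 467 and 450.2 CPM, and NEAT1, the scaffold of paraspeckles, at 535 and 552 CPM, while MALAT1, a nuclear RNA abundant in many cells, was at 66.3 and 58.7 CPM. HOTAIR stood at 3.20 and 2.60 CPM, and H19 and UCA1 had 10 and 11 reads and 0 and 0 reads.

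Some gaps between the libraries lie in sets of overlapping genes, which were looked at after the values were seen. CHKB and CPT1B differed singly, with 270 and 101 reads and 330 and 176 reads, while CHKB-CPT1B had 781 and 1182, and the sum was 1381 and 1459. PTCD1 had 823 and 534 reads and ATP5MF-PTCD1 had 102 and 438, and with ATP5MF the sum was 3988 and 4092. LUZP6 had 886 and 271 reads inside a sum with MTPN of 9710 and 9486. RPL17-C18orf32 had 756 and 313 reads inside a sum with RPL17 and C18orf32 of 30796 and 30753. Among the 39 genes more than 0.5 log2 apart, 7 had read-through symbols, against 34 of all 11060 genes of at least 5 CPM. The part of read assignment in these gaps was not tested.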
